A study of Mus musculus with 15 samples.

Results

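The complement members followed here were 9 genes: the C1q chains *C1qa*, *C1qb*, and *C1qc*, the components *C2*, *C3*, and *C4b*, properdin (*Cfp*), the anaphylatoxin receptor gene *C3ar1*, and the ficolin gene *Fcna*. They were chosen by name, matched to the Ensembl identifiers of the deposited counts, and all 9 were present among the 19456 genes of the table and among the 15802 genes that passed the filter on low counts. RNA had been sequenced from 15 libraries of male adult WT C57BL/6 mice: 3 libraries of Ly6Chi blood monocytes and 4 of each of 3 macrophage populations of the small intestine. These were Tim-4–CD4–, then Tim-4–CD4+, then Tim-4+CD4+ cells, and lists of macrophage values below keep this order. Each library held cells pooled from 3 mice, apart from monocyte replicate 2 with 4 mice, so that the spread between libraries is a spread between pools and not between single animals. Monocytes came from blood and macrophages from digested gut tissue, so tissue and handling cannot be told apart from cell type in comparisons with monocytes. The study gated gut macrophages on CD45, CD11b, CD64, and MHCII, and the sort excluded cells with surface Ly6C. Total counts ranged from 39388763 to 151510641 per library.

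Complement is a cascade of plasma proteins that tags targets for uptake and starts inflammation. In the classical pathway, C1q, a hexamer built from A, B, and C chains, recognizes antibody complexes and dying cells, and its proteases cut C4 and C2 into the enzyme that cleaves C3. Ficolins recognize sugars and acetylated groups and enter the cascade at the same step by way of the lectin pathway. Properdin stabilizes the C3-cleaving enzyme of the alternative pathway, and C3a, the small fragment of C3, signals through the receptor encoded by *C3ar1*. The liver makes most plasma complement, whereas tissue macrophages are the main source of C1q.

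The labels held for the sorting markers. *Timd4*, which encodes Tim-4, lay between 336 and 390 CPM (counts scaled to a common library size of 1e6) in the Tim-4+CD4+ libraries and at no more than 4.47 CPM in any other library. *Cd4* ranged from 484 to 598 CPM in Tim-4–CD4+, from 752 to 924 CPM in Tim-4+CD4+, and from 14.5 to 39.2 CPM in Tim-4–CD4– macrophages. *Ly6c2* lay at 820 to 1545 CPM in monocytes and at no more than 3.46 CPM in the macrophages. All libraries are bulk samples of sorted cells, so fewer cells that express a gene and less RNA per cell cannot be told apart.

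All members lie on the minus strand in the annotation (GENCODE M21, GRCm38). The C1q genes sit side by side on chromosome 4, *C1qb* at chr4:136880129-136886187, *C1qc* at chr4:136889804-136893065, and *C1qa* at chr4:136895917-136898803, within 18675 bases. *C4b* (chr17:34728380-34743882), *C2* (chr17:34862604-34898265), and *C3* (chr17:57203970-57228136) are on chromosome 17. *Fcna* is at chr2:25624666-25628030, *C3ar1* at chr6:122847138-122856161, and *Cfp* at chrX:20925454-20931555. RefSeq promoters (build GRCm38.p6) were at hand for 6 of the 9 members, and not for *C1qa*, *C2*, and *C4b*. The DNA upstream of the start is shown for the members that had the contrasting patterns below: a pair of C1q chains, which were high in every macrophage population, *Fcna*, which was high in Tim-4+CD4+ macrophages, and *C3*, which was highest in monocytes. Sequences run 5′ to 3′ on the gene's strand. Bases that lie inside the GENCODE gene model were left out, 151 for *C1qc* and 56 for *Fcna*. Capitals mark every match, on either strand, to GAGGAA (a core bound by PU.1-type ETS factors), TGCTGA (a MAF half-site), TTGCNNAA (a C/EBP-type site), or TATAAA.
C1qb, chr4:136886201-136886450, minus strand: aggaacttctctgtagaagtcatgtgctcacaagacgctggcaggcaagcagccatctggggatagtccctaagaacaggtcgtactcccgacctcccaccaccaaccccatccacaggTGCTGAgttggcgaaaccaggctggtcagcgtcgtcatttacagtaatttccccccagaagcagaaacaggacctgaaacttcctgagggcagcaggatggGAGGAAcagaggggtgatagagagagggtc
C1qc, chr4:136893066-136893164, minus strand: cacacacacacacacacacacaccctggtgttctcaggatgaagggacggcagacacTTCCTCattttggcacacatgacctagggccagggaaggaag
Fcna, chr2:25628031-25628224, minus strand: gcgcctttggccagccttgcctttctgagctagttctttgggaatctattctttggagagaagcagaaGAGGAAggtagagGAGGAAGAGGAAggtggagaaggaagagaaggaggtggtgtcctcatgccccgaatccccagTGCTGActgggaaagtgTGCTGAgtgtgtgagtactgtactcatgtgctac
C3, chr17:57228137-57228386, minus strand: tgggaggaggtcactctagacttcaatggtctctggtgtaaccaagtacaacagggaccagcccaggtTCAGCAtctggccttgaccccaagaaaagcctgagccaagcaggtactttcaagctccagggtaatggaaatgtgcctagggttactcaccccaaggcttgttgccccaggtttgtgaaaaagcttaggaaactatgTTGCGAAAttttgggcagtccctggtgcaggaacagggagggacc
In the 250 bases before the RefSeq start, *C1qb* held GAGGAA with its first base 30 bases before the start and TGCTGA at 131 bases. *C1qc* held GAGGAA on the opposite strand at 193 bases. *Fcna* held GAGGAA at 182, 169, and 163 bases and TGCTGA at 107 and 90 bases. The *C3* promoter held no GAGGAA, and held TTGCNNAA at 45 bases and TGCTGA on the opposite strand at 182 bases. *C3ar1* held TATAAA and TGCTGA, and *Cfp* held none of these letters. Among 32536 promoter windows of the same length, 23.4% held GAGGAA, 16.1% TGCTGA, 9.57% TTGCNNAA, and 12.3% TATAAA. These matches describe letters and not bound sites.

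Gut macrophages carried more of most complement transcripts than blood monocytes did, and less *C3*. All 9 members were called between monocytes and each macrophage population at an adjusted p under 0.05 (edgeR's quasi-likelihood test, adjusted by Benjamini-Hochberg over all genes tested). The same 8 members were higher in each macrophage population, and *C3* was lower. Library values of monocytes and macrophages did not overlap for any member. The share of all genes without such overlap was not counted, so this is not a trait particular to the members. Calls were common in these comparisons. Of all genes tested, 37.3% were called higher and 28.1% lower in Tim-4–CD4– macrophages than in monocytes. The shares were 39.1% and 30.7% for Tim-4–CD4+ and 39.5% and 31.3% for Tim-4+CD4+ macrophages. The median log2 difference of the members from monocytes was 2.25, 3.53, and 6.88 in the macrophage populations, against 0.08, 0.11, and 0.10 over all genes tested. The middle member was *C2* in both Tim-4– populations and *C3ar1* in Tim-4+CD4+ macrophages. *C3ar1* itself was level at 6.90, 7.04, and 6.88. *C2*, which the study picked as high in Tim-4+CD4+ macrophages on these libraries, was at 6.98 there, so the rise of the median is not a shift of all members. These comparisons share the monocyte libraries.

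Between macrophage populations, the members split into those that stayed level and those that differed in some of the comparisons. *C1qa*, *C1qb*, *C1qc*, *Cfp*, and *C3ar1* were called in no comparison between macrophages. In Tim-4–CD4+ against Tim-4–CD4– macrophages, 1 member (*C2*) was higher and 1 (*C3*) lower, beside 4.52% and 5.53% of all genes. Tim-4+CD4+ against Tim-4–CD4– macrophages had 3 members (*C2*, *C4b*, and *Fcna*) higher and 1 (*C3*) lower, beside 11.3% and 11.9% of all genes. Set against Tim-4–CD4+ cells, the Tim-4+CD4+ population had the same 3 members higher and none lower, beside 2.07% and 1.34% of all genes. *Fcna* and *C2* were among the genes that the study itself picked as high in Tim-4+CD4+ macrophages on these libraries, so their direction there is not independent evidence. The median log2 difference of the members was 0.05, 0.21, and 0.19 in these comparisons in that order, against -0.0029, -0.0047, and -0.0019 over all genes.

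**Figure D1:**
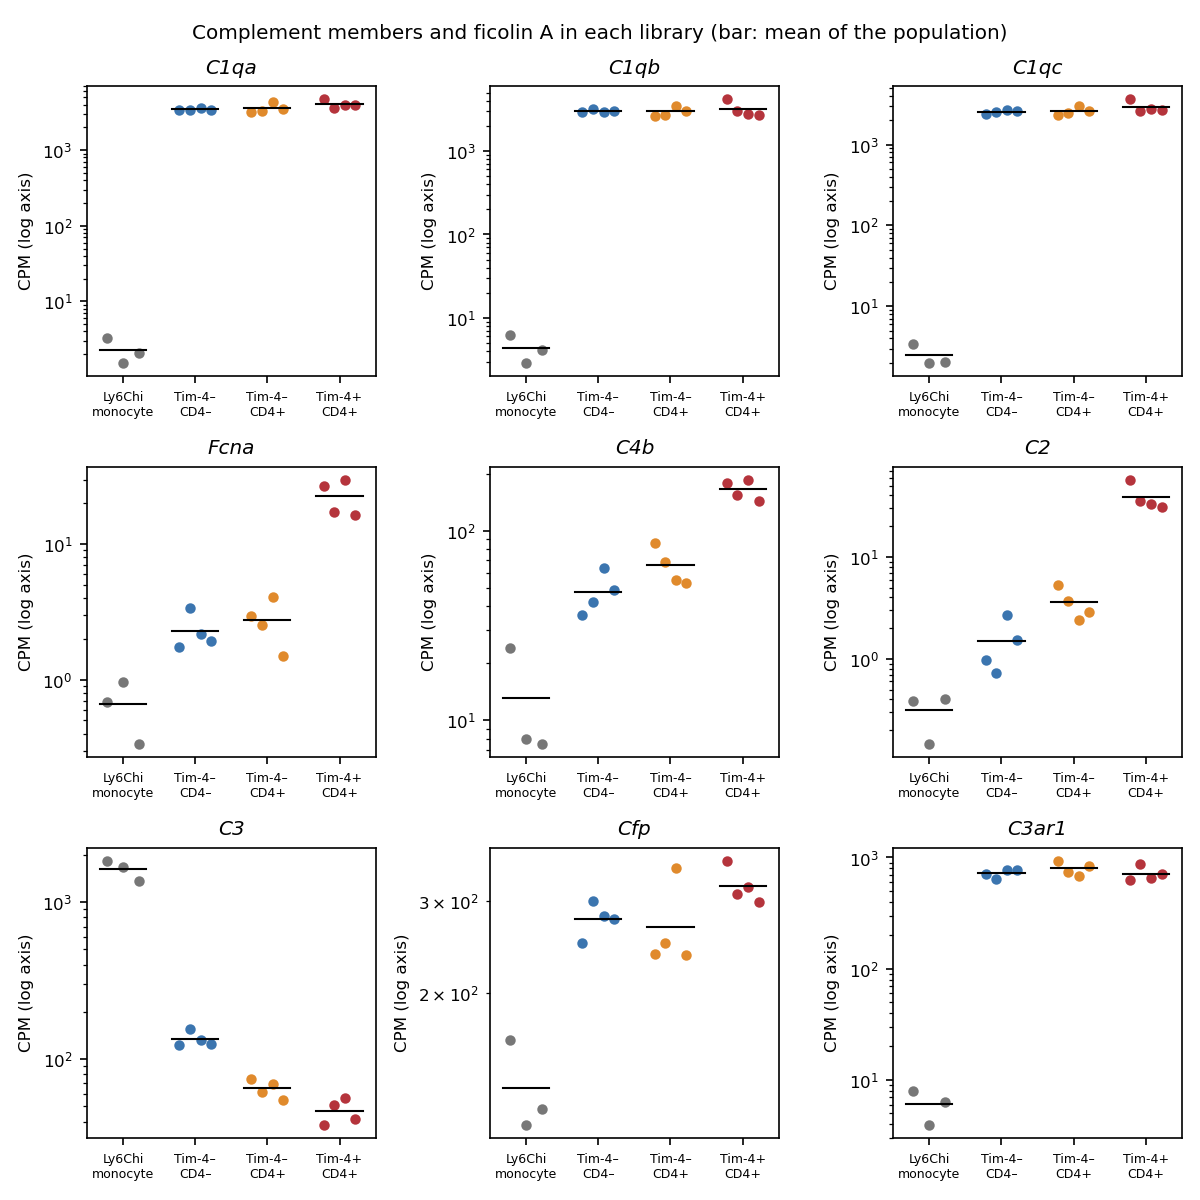
CPM of the 9 members in each of the 15 libraries, on log axes that differ between panels. Points are libraries in replicate order and bars are population means. The C1q chains and *C3ar1* form a level shelf over the 3 macrophage populations, *Fcna*, *C4b*, and *C2* step up in Tim-4+CD4+ macrophages, and *C3* runs the other way.

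The C1q chains had the largest differences from monocytes of all 9 members and were called in no comparison between macrophages. *C1qa*, which encodes the A chain, was at 3.33, 1.53, and 2.06 CPM in monocyte replicates 1 to 3. It was at 3393, 3393, 3652, and 3411 CPM in Tim-4–CD4–, at 3180, 3270, 4364, and 3501 CPM in Tim-4–CD4+, and at 4715, 3604, 3945, and 4010 CPM in Tim-4+CD4+ macrophages. Every macrophage library was far above every monocyte library, and the macrophage populations overlapped. The fold over monocytes was 1481 in Tim-4–CD4– (95% interval 974 to 2251), 1530 in Tim-4–CD4+ (1006 to 2329), and 1740 in Tim-4+CD4+ macrophages (1140 to 2655), with an edgeR adjusted p of at most 1.11e-14.

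*C1qb*, the B chain, was at 6.28, 2.88, and 4.12 CPM in monocytes, and *C1qc*, the C chain, at 3.41, 1.98, and 2.06 CPM. Tim-4–CD4– macrophages had *C1qb* at 2889, 3169, 2910, and 2983 CPM and *C1qc* at 2394, 2543, 2641, and 2572 CPM. Replicates of this population were the tightest of the macrophage populations for all 3 chains. Tim-4–CD4+ macrophages had *C1qb* at 2651, 2705, 3488, and 3033 CPM and *C1qc* at 2293, 2484, 3031, and 2567 CPM, both highest in replicate 3, as was *C1qa*. Tim-4+CD4+ macrophages had *C1qb* at 4166, 3049, 2763, and 2663 CPM and *C1qc* at 3634, 2586, 2740, and 2665 CPM, both highest in replicate 1, as was *C1qa*. The fold over monocytes was 670 (431 to 1043), 666 (429 to 1036), and 709 (455 to 1104) for *C1qb*, and 1005 (695 to 1454), 1028 (710 to 1487), and 1151 (794 to 1669) for *C1qc*.

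Macrophage means of *C1qa* were 3462 ± 127 (SD, n = 4), 3579 ± 541 (n = 4), and 4069 ± 466 CPM (n = 4). Neighbours in this order did not differ beyond their spread: *C1qa* in Tim-4+CD4+ over Tim-4–CD4+ macrophages had a log2 difference of 0.19 (95% interval -0.16 to 0.53, edgeR adjusted p = 0.636). Against Tim-4–CD4– macrophages, the log2 difference of *C1qa* was 0.23 (-0.12 to 0.58), that of *C1qb* 0.08 (-0.30 to 0.47), and that of *C1qc* 0.20 (-0.12 to 0.51). For Tim-4–CD4+ over Tim-4–CD4– macrophages, these were 0.05 (-0.30 to 0.40), -0.01 (-0.39 to 0.38), and 0.03 (-0.28 to 0.34). The upper bounds for Tim-4+CD4+ over Tim-4–CD4– macrophages amount to 1.5-fold for *C1qa*, 1.38-fold for *C1qb*, and 1.42-fold for *C1qc*. The sign for *C1qb* hung on Tim-4+CD4+ replicate 1: leaving that library out gave a log2 difference of -0.08 from Tim-4–CD4– and -0.07 from Tim-4–CD4+ macrophages. Together the 3 chains made up 0.850% to 0.903% of all counts in Tim-4–CD4–, 0.820% to 1.03% in Tim-4–CD4+, and 0.924% to 1.23% in Tim-4+CD4+ libraries, against 0.000698% to 0.00132% in monocytes.

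Per kilobase of the longest coding transcript, the A chain was the most abundant of the 3 in all 12 macrophage libraries, then the B chain, then the C chain. In Tim-4–CD4– macrophages, levels were 3329 ± 122, 2746 ± 117, and 2110 ± 86.5 CPM per kb (SD, n = 4) for *C1qa*, *C1qb*, and *C1qc*. The ratio of *C1qb* to *C1qa* per kb was 0.814, 0.893, 0.761, and 0.836 in Tim-4–CD4– and 0.797, 0.791, 0.764, and 0.828 in Tim-4–CD4+ macrophages. It was 0.845 and 0.808 in replicates 1 and 2 but 0.669 and 0.635 in replicates 3 and 4 of Tim-4+CD4+ macrophages, the lowest of the 12 libraries. *C1qc* relative to *C1qa* held a narrower range of 0.575 to 0.666 over the macrophage libraries. In monocytes the B chain was ahead of the A chain per kb, with ratios of 1.80, 1.80, and 1.91, on the 111 to 886 counts that each chain had in a monocyte library. Over the 12 macrophage libraries, the log2 CPM of *C1qa* had a Pearson correlation of 0.93 with *C1qc* and 0.70 with *C1qb*, and *C1qb* had 0.86 with *C1qc*, as a description of libraries that also share depth and handling.

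**Figure D2:**
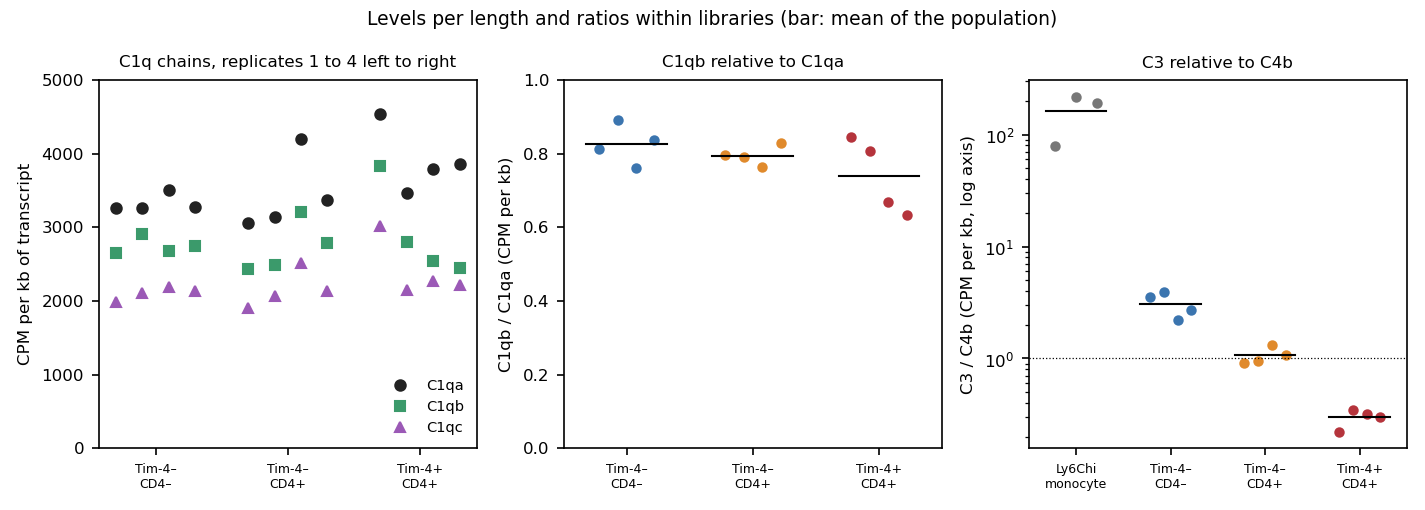
Left, CPM per kb of the 3 C1q chains in the 12 macrophage libraries; middle, *C1qb* over *C1qa* within each macrophage library; right, *C3* over *C4b* within each library on a log axis, with a dotted line at 1. Bars are population means. The B to A ratio separates Tim-4+CD4+ replicates 3 and 4 from the rest, and *C3* over *C4b* falls step by step without overlap between populations.

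*Fcna*, which encodes ficolin A, a soluble lectin found in macrophages of several tissues, was highest in the Tim-4+CD4+ libraries. It was at 0.680, 0.963, and 0.334 CPM in monocytes, from 18 to 99 counts. It was at 1.73, 3.38, 2.16, and 1.92 CPM in Tim-4–CD4– and at 2.93, 2.55, 4.08, and 1.49 CPM in Tim-4–CD4+ macrophages. In Tim-4+CD4+ macrophages it was at 27.0, 17.2, 29.7, and 16.4 CPM, and the lowest of these was above every library of the other populations. *Fcna* was thus 9.78-fold higher than in Tim-4–CD4– (95% interval 5.95 to 16.1, edgeR adjusted p = 2.20e-06) and 8.21-fold higher than in Tim-4–CD4+ macrophages (5.04 to 13.4, edgeR adjusted p = 2.74e-05). The Tim-4– populations overlapped, with a log2 difference of 0.25 (-0.44 to 0.94, edgeR adjusted p = 0.723). Over monocytes, *Fcna* was 3.38-fold, 4.03-fold, and 33.1-fold higher in the successive macrophage populations. *Fcna* shares 90 of its 1374 exon bases with the antisense gene *Fcnaos*. The libraries came from a stranded kit, but whether counting used the strand is not given in the sources used here. *Fcnb*, the other mouse ficolin gene, showed the reverse distribution at 3.62 to 7.75 CPM in monocytes. Its highest level in a macrophage library was 0.00973 CPM, which was 1 count.

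*C4b* and *C2* encode the substrates from which C1 and the lectin-pathway proteases build the C3 convertase. Both rose from monocytes through the Tim-4– macrophages to the Tim-4+CD4+ macrophages. *C4b* was at 24.0, 8.02, and 7.49 CPM in monocytes, where replicate 1 stood apart. It was at 36.0, 42.1, 63.5, and 48.8 CPM in Tim-4–CD4–, at 86.2, 68.2, 54.7, and 53.2 CPM in Tim-4–CD4+, and at 179, 155, 184, and 143 CPM in Tim-4+CD4+ macrophages. Tim-4+CD4+ libraries were above all others, and the Tim-4– populations overlapped. *C4b* was 3.48-fold higher in Tim-4+CD4+ than in Tim-4–CD4– (95% interval 2.24 to 5.40, edgeR adjusted p = 0.000321) and 2.52-fold higher than in Tim-4–CD4+ macrophages (1.64 to 3.89, edgeR adjusted p = 0.0154). The latter call was lost without Tim-4–CD4+ replicate 4 (edgeR adjusted p = 0.0594), with a log2 difference of 1.25 in place of 1.34. Between the Tim-4– populations the log2 difference was 0.46 (-0.16 to 1.08, edgeR adjusted p = 0.390).

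Over monocytes, *C4b* was 3.58-fold, 4.94-fold, and 12.5-fold higher in the successive macrophage populations. Monocyte replicate 1 held these values down, and without it the log2 differences moved from 1.84, 2.30, and 3.64 to 2.64, 3.10, and 4.44. *C4b* has a near-identical paralog, *C4a*, at 0.318 to 1.14 CPM over the 15 libraries. Only uniquely mapped reads were counted, so the split between the paralogs is uncertain. Markers of some other cell types moved with *C4b*, *C2*, and *Fcna* between macrophage populations, and those of others did not. All 7 mesenchymal markers listed were in the table, and their summed level was 64.6 to 97.4 CPM in Tim-4–CD4–, 77.3 to 100 CPM in Tim-4–CD4+, and 107 to 145 CPM in Tim-4+CD4+ libraries. In monocytes the sum was at most 0.0372 CPM, with *Pdgfra* and *Lum* at 0. The 4 endothelial markers summed to 118 to 141, 190 to 238, and 306 to 370 CPM in the macrophages. The 6 markers of enteric neurons and glia, at 1.56 to 2.12, 1.15 to 1.95, and 5.71 to 7.51 CPM, were low throughout but had the largest step into Tim-4+CD4+ macrophages of these lists. Eosinophil markers (3 of 4 listed) were at 5.66 to 9.87, 9.28 to 11.2, and 12 to 17.9 CPM. B and plasma cell markers were at 280 to 420, 262 to 407, and 239 to 428 CPM. Epithelial markers were at 9.31 to 26.8, 14.5 to 17.2, and 14.4 to 22.1 CPM. Dendritic cell markers were at 118 to 188, 108 to 157, and 105 to 138 CPM. For B and plasma cell, epithelial, dendritic cell, neutrophil, and T cell markers, Tim-4+CD4+ libraries overlapped those of each Tim-4– population. For mesenchymal, endothelial, enteric neuron and glia, and eosinophil markers, Tim-4+CD4+ libraries were above all Tim-4– libraries. Macrophages had been gated on CD45, and the source of the RNA of these markers is not known. The part of any of them in the differences of *C4b*, *C2*, and *Fcna* was not tested.

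*C2* encodes the serine protease subunit of that convertase. It was at 0.383, 0.146, and 0.409 CPM in monocytes, from 15 to 54 counts. It was at 0.986, 0.720, 2.72, and 1.53 CPM in Tim-4–CD4–, at 5.35, 3.67, 2.39, and 2.90 CPM in Tim-4–CD4+, and at 56.5, 35.1, 33.1, and 30.6 CPM in Tim-4+CD4+ macrophages. The last population stood clear of the rest, while Tim-4–CD4– replicate 3 reached into the range of the Tim-4–CD4+ libraries. *C2* was 26.5-fold higher in Tim-4+CD4+ than in Tim-4–CD4– (95% interval 14.9 to 47.1, edgeR adjusted p = 2.06e-07) and 11-fold higher than in Tim-4–CD4+ macrophages (6.46 to 18.6, edgeR adjusted p = 1.65e-05). It was 2.42-fold higher in Tim-4–CD4+ than in Tim-4–CD4– macrophages (1.41 to 4.16, edgeR adjusted p = 0.0375). That last call was fragile, since it was lost when any of 6 libraries was left out: Tim-4–CD4– replicate 1, 2, or 4 or Tim-4–CD4+ replicate 1, 2, or 4 (edgeR adjusted p of 0.0534 to 0.118). Without Tim-4–CD4– replicate 3, the log2 difference rose from 1.27 to 1.75. Over monocytes, *C2* was 4.77-fold, 11.5-fold, and 126-fold higher in the successive macrophage populations. *C2* shares 1656 of its 3872 exon bases with *Gm20547*, a gene that runs along *C2* and its neighbor *Cfb* on the same strand and that was not analysed here. *Cfb*, which encodes factor B, the counterpart of C2 in the alternative pathway, lies 85 bases from *C2* and was between 4.14 and 10.5 CPM in all libraries. It was called in no comparison, and had a log2 difference of -0.31 in Tim-4+CD4+ against Tim-4–CD4– macrophages (edgeR adjusted p = 0.364).

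In each Tim-4– population, the library with the highest *Timd4* also had the highest *C2* and *C4b*, but not the highest *Fcna*. Among Tim-4–CD4– libraries, replicate 3 had the highest *Timd4* (2.93 CPM), the highest *C2*, and the highest *C4b*. That library also had the highest *Cd4* of its population (39.2 CPM). Its summed epithelial, mesenchymal, dendritic cell, eosinophil, and B and plasma cell markers were the highest as well, and its endothelial and neutrophil sums the lowest. The match is therefore not particular to these genes. Among Tim-4–CD4+ libraries, replicate 1 had the highest *Timd4* (4.47 CPM), again with the highest *C2* and *C4b*, and replicate 2 came next for all 3 genes. The lowest libraries did not match for *C4b*, which was lowest in Tim-4–CD4– replicate 1 and Tim-4–CD4+ replicate 4, while *Timd4* was lowest in replicates 2 and 3 of these populations. *Fcna* was highest in the libraries where *Timd4* was lowest, at 3.38 CPM in Tim-4–CD4– replicate 2 (*Timd4* 0.151 CPM) and 4.08 CPM in Tim-4–CD4+ replicate 3 (*Timd4* 0.511 CPM). *Timd4* had only 9 to 244 counts in these libraries. The levels were not in the same proportion. Set against the mean of the Tim-4+CD4+ libraries, *Timd4* was at 0.0424% to 0.825% in Tim-4–CD4– and at 0.144% to 1.26% in Tim-4–CD4+ libraries. *C2* was at 1.86% to 7.0% and 6.16% to 13.8%, *Fcna* at 7.67% to 15% and 6.60% to 18.0%, and *C4b* at 21.7% to 38.4% and 32.1% to 52.1%. In each of the 8 Tim-4– libraries, the share of each of these members was above the share of *Timd4*.

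**Figure D3:**
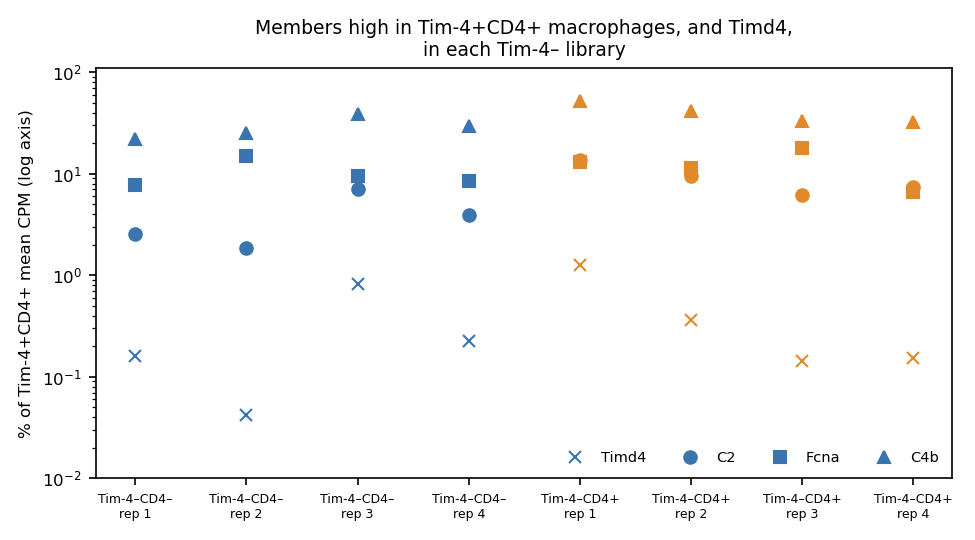
CPM of *Timd4*, *C2*, *Fcna*, and *C4b* in each of the 8 Tim-4– libraries, as a percent of the mean CPM of the 4 Tim-4+CD4+ libraries, on a log axis. Blue symbols are Tim-4–CD4– and orange symbols Tim-4–CD4+ libraries. *Timd4* is at or under 1.26% in each, below all 3 members.

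*C3*, the component on which all pathways converge, was the only member higher in monocytes. It was at 1825, 1667, and 1370 CPM in monocytes. It was at 122, 157, 132, and 126 CPM in Tim-4–CD4–, at 74.5, 61.5, 69.4, and 55.1 CPM in Tim-4–CD4+, and at 38.0, 50.7, 56.2, and 41.5 CPM in Tim-4+CD4+ macrophages. Monocytes were highest, Tim-4–CD4– macrophages came next with no overlap, and the CD4+ populations overlapped in their nearest libraries. *C3* was 12.1-fold, 24.9-fold, and 34.8-fold lower than in monocytes (edgeR adjusted p of at most 3.37e-12). Against Tim-4–CD4– macrophages it was 2.06-fold lower in Tim-4–CD4+ (log2 difference -1.04, 95% interval -1.34 to -0.75, edgeR adjusted p = 9.81e-05) and 2.88-fold lower in Tim-4+CD4+ macrophages (-1.53, -1.82 to -1.23, edgeR adjusted p = 5.82e-07). Between the CD4+ populations the log2 difference was -0.48 (-0.77 to -0.19), which missed the threshold (edgeR adjusted p = 0.0682). It was called by DESeq2 (adjusted p = 0.0145) and without Tim-4+CD4+ replicate 3 (edgeR adjusted p = 0.0313).

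The monocyte marker *Ccr2* fell in the same order as *C3*. This gene, which encodes the receptor that draws monocytes out of the bone marrow, was at 2243 to 2884 CPM in monocytes, 510 to 759 CPM in Tim-4–CD4–, 65.2 to 113 CPM in Tim-4–CD4+, and 4.84 to 15.8 CPM in Tim-4+CD4+ libraries, and its part in the *C3* difference was not tested. In Tim-4–CD4– macrophages *Ccr2* was at a mean of 25.1% of the monocyte level. *Ly6c2* and *Vcan* were at no more than 0.544% of the monocyte mean in any macrophage library. The sort excluded cells with surface Ly6C, so a low *Ly6c2* was favored by the gate and says little about cells recently derived from monocytes. *C3* was at 7.55% to 9.67% of the monocyte mean in Tim-4–CD4–, 3.4% to 4.60% in Tim-4–CD4+, and 2.34% to 3.47% in Tim-4+CD4+ libraries.

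**Figure D4:**
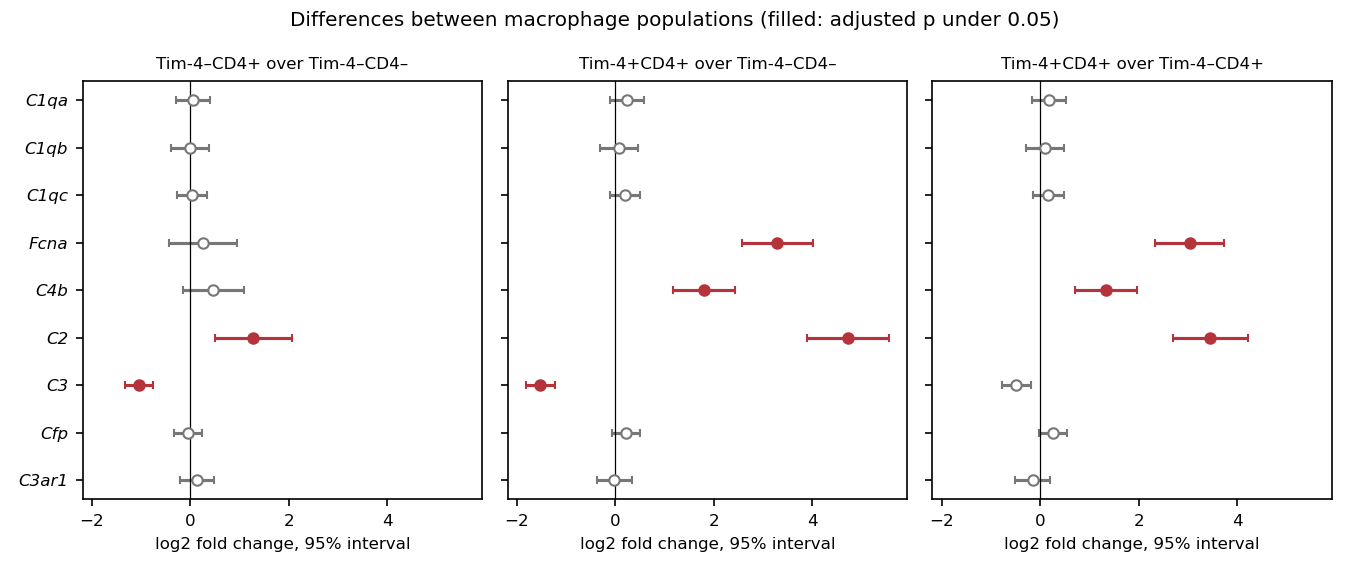
Log2 fold changes of the 9 members between macrophage populations, with 95% intervals from the edgeR fit over all 15 libraries (n = 4 in each macrophage population). Filled points passed an adjusted p of 0.05. *C2*, *C4b*, and *Fcna* lie to the right of 0 in both comparisons of Tim-4+CD4+ macrophages, *C3* lies to the left, and the intervals of the C1q chains, *Cfp*, and *C3ar1* include 0 in all 3 panels.

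*Cfp*, the gene of properdin, differed least from monocytes. It was at 162, 111, and 120 CPM in monocytes, at 250, 301, 280, and 278 CPM in Tim-4–CD4–, at 237, 250, 348, and 236 CPM in Tim-4–CD4+, and at 358, 309, 319, and 299 CPM in Tim-4+CD4+ macrophages. The highest monocyte library stayed below the lowest macrophage library, and the macrophage populations overlapped. The fold over monocytes was 2.12 (95% interval 1.70 to 2.64), 2.04 (1.64 to 2.55), and 2.45 (1.96 to 3.06). *Cfp* in Tim-4+CD4+ macrophages was 1.16-fold the level in Tim-4–CD4– (0.951 to 1.41, edgeR adjusted p = 0.285) and 1.20-fold that in Tim-4–CD4+ macrophages (0.985 to 1.46, edgeR adjusted p = 0.390), so that neither pair was told apart. The log2 difference between the Tim-4– populations was -0.05 (-0.34 to 0.24, edgeR adjusted p = 0.884).

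*C3ar1*, the receptor for C3a, was at 7.93, 3.93, and 6.32 CPM in monocytes. It was at 716, 646, 767, and 772 CPM in Tim-4–CD4–, at 925, 739, 686, and 834 CPM in Tim-4–CD4+, and at 628, 882, 651, and 703 CPM in Tim-4+CD4+ macrophages. The macrophage populations overlapped throughout and were 119-fold (95% interval 83.2 to 172), 131-fold (91.2 to 189), and 118-fold (82.2 to 169) above monocytes. Tim-4+CD4+ macrophages had a log2 difference from Tim-4–CD4– macrophages of -0.02 (-0.37 to 0.33, edgeR adjusted p = 0.958). This interval leaves room for a change of up to 1.26-fold upward and for a slightly larger change downward. Tim-4–CD4+ cells lay 0.13 above Tim-4–CD4– cells on the log2 scale (-0.22 to 0.49, edgeR adjusted p = 0.707). Monocytes thus had the gene of the ligand's precursor at a high level and the receptor gene at a low level, and all macrophage populations had the reverse.

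On the scale of CPM per kb, the order of the members' levels turned over between cell types. In monocytes, *C3* led at 316 ± 45.0 CPM per kb (SD, n = 3), *Cfp* followed at 80.1 ± 16.7, and all other members were at or below a mean of 4.07. In each macrophage population the C1q chains led, followed by *Cfp* and *C3ar1*, which did not separate in any of them (169 ± 12.9 and 168 ± 13.6 CPM per kb in Tim-4–CD4– macrophages, n = 4). *C3* over *C4b* per kb was 79.8, 218, and 192 in monocytes, 3.56, 3.90, 2.18, and 2.70 in Tim-4–CD4–, and 0.906, 0.944, 1.33, and 1.08 in Tim-4–CD4+ macrophages. The Tim-4+CD4+ values were 0.222, 0.343, 0.319, and 0.303, and *C4b* exceeded *C3* in all 4 libraries. The populations did not overlap in this ratio. *C2* and *Fcna* were the scarcest members per kb in the Tim-4– populations, and in Tim-4+CD4+ macrophages *C3* (9.07 ± 1.63), *C2* (14.7 ± 4.52), and *Fcna* (16.4 ± 4.92) were the scarcest. Reads in the exons that *C2* shares with *Gm20547*, or common to *C4b* and *C4a*, may not have been counted. The ranks of *C2* and *C4b* and the point where *C3* over *C4b* crosses 1 are therefore uncertain.

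The genes whose log2 CPM followed each member most closely were sought among 8221 genes over the 12 macrophage libraries, as a description. The r given are the highest found, and differences between populations enter them. Shared regulation cannot be read from them and was not tested. For *C2*, these were *Xlr* (Pearson r = 0.99), *Ctla2b* (0.97), and *Timd4* (0.97), and for *C4b*, *Xlr* (0.97), *Timd4* (0.97), and *Ppp1r9a* (0.96). For *Fcna*, they were *Folr2* (0.98), *Rhoc* (0.97), and *Camk2n1* (0.96). *Timd4*, *Xlr*, and *Ppp1r9a* belong, like *C2* and *Fcna*, to the genes that the study picked in Tim-4+CD4+ macrophages. *C3* was followed by *Tm6sf1* (0.99), *Slc20a1* (0.98), and *Map4k4* (0.98). The members that were level between populations had other companions, *Tmem14c* (0.96) for *C1qa*, *Ergic3* (0.97) for *C1qb*, *Akr1a1* (0.94) for *C1qc*, *Nsmf* (0.94) for *Cfp*, and *Tmem209* (0.92) for *C3ar1*.

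The rest of the pathway was read from a list of 54 other complement genes, of which 38 had a row and 30 passed the filter on low counts. Against monocytes, 17 were higher and 5 lower in the Tim-4–CD4– population, 16 against 5 in the Tim-4–CD4+ population, and 18 against 6 in the Tim-4+CD4+ population. Between macrophages, the counts were 2 higher (*C6* and *Itgax*) with 2 lower (*C1qbp* and *Itgam*) for Tim-4–CD4+ over Tim-4–CD4– cells. For Tim-4+CD4+ over Tim-4–CD4– cells they were 7, *C6* and *Itgax* among them, with 3 (*C1qbp*, *Itgam*, and *Scarf1*). For Tim-4+CD4+ over Tim-4–CD4+ cells they were 1 with 2 (*Itgam* and *Scarf1*). *Scarf1* is outside the rule for named genes and was named after its values were seen. The percentages of all genes given above for each comparison apply here too. The values below are population means, with monocytes first and the macrophages in the order above.

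Of the terminal components, which form the membrane attack complex, *C6* had by far the widest range. It was at 0.153 ± 0.0886 (SD, n = 3), 204 ± 21.1, 424 ± 15.1, and 502 ± 27.8 CPM (n = 4 each). *C6* was higher in both CD4+ populations than in Tim-4–CD4– macrophages, with log2 differences of 1.06 ± 0.14 (SE, edgeR adjusted p = 7.71e-05) and 1.30 ± 0.14 (edgeR adjusted p = 2.74e-06). Its CD4+ populations differed by 0.24 ± 0.13 on the log2 scale, which was not called (edgeR adjusted p = 0.433).

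Among receptors for complement, the C5a receptors *C5ar1* (31.5, 577, 527, and 507 CPM) and *C5ar2* (7.71, 69.7, 78.7, and 74.9 CPM) were higher in every macrophage population than in monocytes and were called in no comparison between macrophages. The complement receptor integrins diverged. *Itgax*, the chain of CR4, rose from 16.6 to 690, 978, and 1073 CPM and was called higher in both CD4+ populations than in Tim-4–CD4– macrophages. *Itgam*, the chain of CR3 and the gene of the gated protein CD11b, was at 353, 346, 267, and 209 CPM, and was called lower in each CD4+ population than in Tim-4–CD4– macrophages and lower in Tim-4+CD4+ than in Tim-4–CD4+ macrophages (log2 difference -0.36 ± 0.09, edgeR adjusted p = 0.0477). The last of these calls for *Itgam* was lost in 21 of 25 alternatives, with either replicate block among them, and the call between the Tim-4– populations in 5 of 25. The call of *Itgam* in Tim-4+CD4+ against Tim-4–CD4– macrophages was kept in all 25. *Itgb2*, their shared beta chain, was at 1719, 470, 488, and 503 CPM and differed only from monocytes. Proteins named as binding partners of C1q showed no single direction. *Lrp1* was at 1597, 336, 297, and 322 CPM, *Calr* at 475, 1307, 1207, and 1174 CPM, and *Cd93* at 221, 635, 582, and 506 CPM, each called against monocytes only. *C1qbp* was at 29.2, 40.5, 27.7, and 29.4 CPM and was called higher in Tim-4–CD4– macrophages than in each other population. *Cr1l*, which encodes the membrane regulator Crry, was at 78.8, 64.5, 64.8, and 58.2 CPM and was called lower in each macrophage population than in monocytes.

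**Figure D5:**
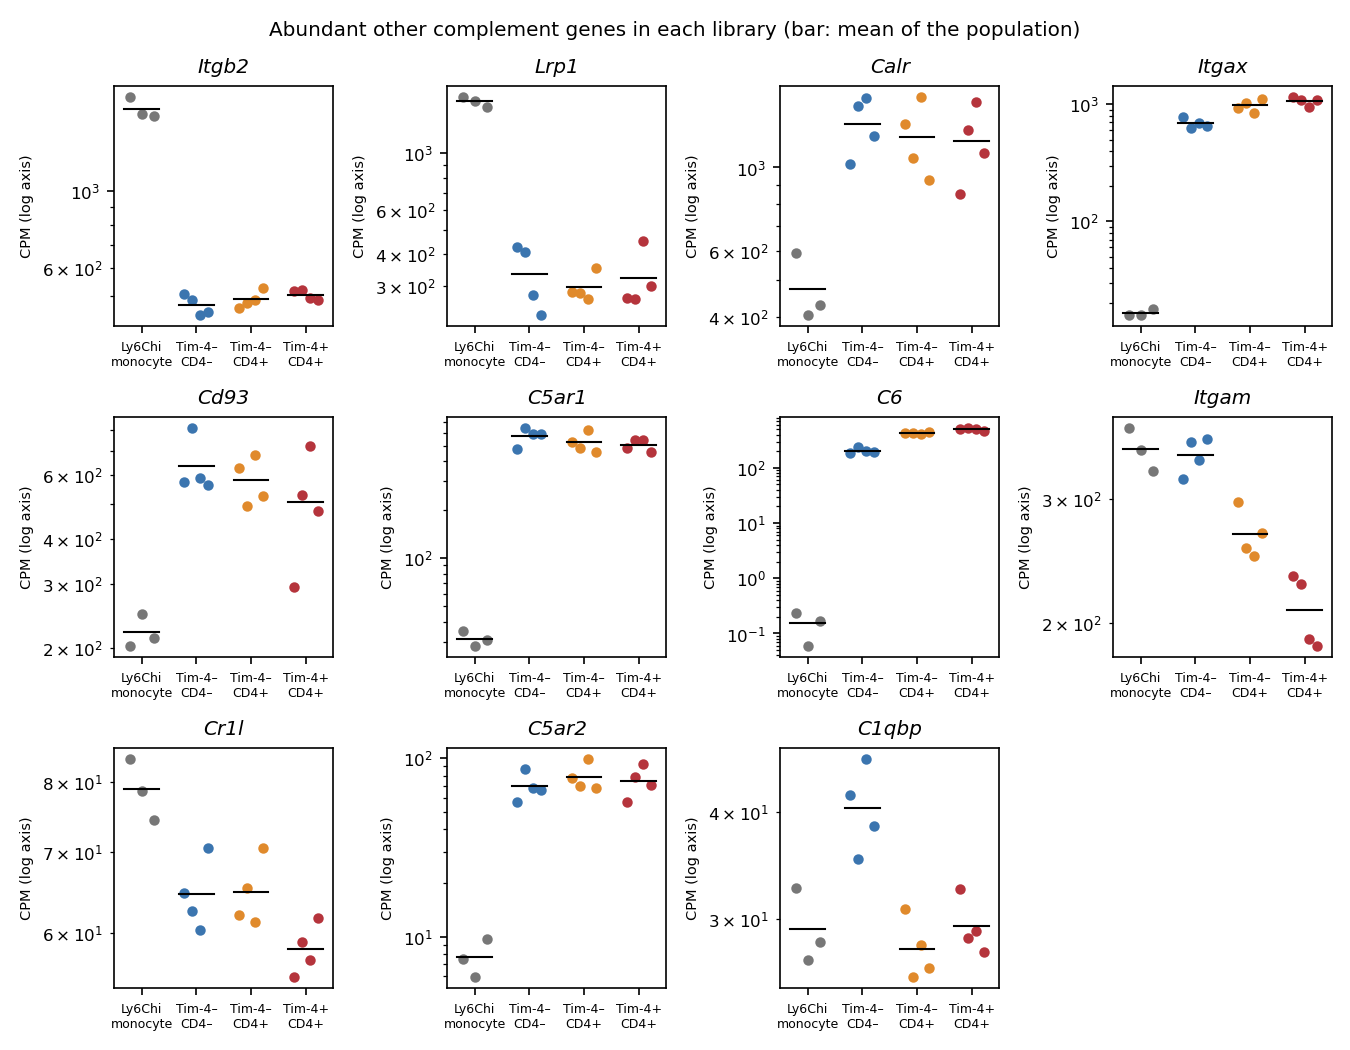
CPM in each library of other complement genes with large population means, on log axes that differ between panels. Points are libraries in replicate order and bars are population means. *C6* and *Itgax* rise from monocytes to the CD4+ populations, and *Itgam* is lower in Tim-4+CD4+ than in Tim-4–CD4– macrophages.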

How the data were processed

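The authors sequenced stranded mRNA libraries, used Trimmomatic 0.36 for trimming, STAR for alignment to GRCm38.p4, and HTSeq 0.6.1p1 with GENCODE vM11 to count uniquely mapped reads per gene. The deposited values used here are these raw counts per gene, with no normalization. The table also held 15 columns of counts divided by size factors, which were not used, and no gene in it had fewer than 16 counts in all. Of its identifiers, 19421 were paired with symbols. Replicate numbers are those of the sample titles.

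Genes with low counts were removed with filterByExpr in edgeR 4.0.16 (R 4.3.3), and libraries were scaled by TMM, on which CPM rest. A quasi-likelihood fit over the 15 libraries gave 6 pairwise comparisons, with Benjamini-Hochberg adjustment over the 15802 genes tested in each and a threshold of 0.05. Intervals are 95% intervals of the fit, and SE come from it. Log2 CPM used a prior count of 2. Levels per kb used the longest coding transcript of GENCODE M21. The fit was tested on simulated data. Genes named were the members, the sorting and cell type markers, the 12 other complement genes with the largest population mean, paralogs and neighbors of members, and, for each member, the 3 genes most correlated with it among those with a mean of at least 10 CPM, of which the first is given for level members. Some genes of these lists are not reported here. Members and lists were chosen with earlier results of these data known. Alternatives were relative log expression, upper-quartile, or no scaling beyond library totals, DESeq2 1.42.0, other filters, only the populations compared, thinned counts, replicate blocks, and leaving out each library. Reads were not marked by molecule, so counts are of reads. Promoters and plots were handled in Python 3.11.15, with matplotlib 3.10.9.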

Additional observations from a re-analysis of the deposited data

Results flagged for a closer look

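In 70 groups of 4 libraries, those of the members, of the 12 other complement genes, and of *C4a*, *Fcnb*, and *Cfb* where not all at 0, the highest or lowest library was set against the rest with Dixon's test at the 95% level, which chance passes in about 1 of 20 groups. It passed in 6, each with a high library. *C1qa* was at 3652 CPM in Tim-4–CD4– replicate 3, with the next library at 3411 CPM. *C1qc* was at 3634 CPM in Tim-4+CD4+ replicate 1, with the next at 2740 CPM. *Cfp* was at 348 CPM in Tim-4–CD4+ replicate 3, with the next at 250 CPM. *Cd93* was at 811 CPM in Tim-4–CD4– replicate 2, with the next at 590 CPM. *C4a* was at 0.844 CPM in Tim-4–CD4+ replicate 4, with the next at 0.409 CPM. *Cfb* was at 7.40 CPM in Tim-4+CD4+ replicate 4, with the next at 5.68 CPM.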

How the results depend on the processing

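All 9 members were called against monocytes, with 8 higher, under all alternatives run. *Fcna*, *C2*, and *C4b* kept their calls in Tim-4+CD4+ over Tim-4–CD4– macrophages throughout, as did *Fcna* and *C2* over Tim-4–CD4+ macrophages. The members called in Tim-4–CD4+ against Tim-4–CD4– macrophages fell from 2 to 1 when only those populations were fitted (*C2*, adjusted p = 0.0504), and ranged from 1 to 2 with a library left out. The other complement genes called in Tim-4+CD4+ against Tim-4–CD4+ macrophages were 6 with DESeq2 in place of 3. Signs turned only for differences that were not called. In Tim-4–CD4+ against Tim-4–CD4– macrophages, *C1qb* (-0.01 as reported) was at 0.0086 with relative log expression, 0.0090 with upper quartile, 0.0029 with library totals alone, 0.0089 with DESeq2, 0.0033 with genes averaging 1 CPM or more, and 0.0017 with only those populations. In Tim-4+CD4+ against Tim-4–CD4– macrophages, *C3ar1* (-0.02 as reported) was at 0.0054 with relative log expression, 0.027 with upper quartile, 0.016 with library totals alone, 0.0054 with DESeq2, and 0.011 with genes averaging 1 CPM or more. The cause of these shifts was not tested.

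With each library left out in turn, log2 differences of Tim-4–CD4+ from Tim-4–CD4– macrophages ranged from -0.064 to 0.10 for *C1qa*, -0.10 to 0.044 for *C1qb*, -0.055 to 0.088 for *C1qc*, -0.20 to 0.0095 for *Cfp*, and -0.015 to 0.51 for *Fcna* (0.25 as reported, and negative only without Tim-4–CD4+ replicate 3). Those of Tim-4+CD4+ from Tim-4–CD4– macrophages ranged from -0.077 to 0.15 for *C1qb* and -0.13 to 0.044 for *C3ar1*, and those from Tim-4–CD4+ macrophages from -0.071 to 0.19 for *C1qb*.

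The replicate numbers of titles and descriptions differ for Tim-4–CD4+ macrophages, and whether either numbering pairs the libraries is not known. Same-numbered libraries correlated over 0.1 in 3 of 21 pairs by titles and 5 of 21 by descriptions. Correlations ranged from -0.12 to 0.13 by titles and from -0.089 to 0.16 by descriptions. By descriptions, macrophage libraries numbered 4 were at 0.16, 0.13, and 0.14 in the 3 comparisons between macrophages. The 21 pairs include monocyte libraries, and low correlations cannot show that libraries were unpaired. With a replicate block by either numbering, 2, 4, and 3 members were called in the 3 comparisons between macrophages, as without it, and the other complement genes called in Tim-4+CD4+ against Tim-4–CD4+ macrophages were 2 in place of 3, with *Itgam* lost (adjusted p of 0.0659 by titles and 0.0739 by descriptions). Over all alternatives, the log2 difference of *Itgam* there ranged from -0.41 to -0.29 and its adjusted p from 0.00912 to 0.210. It was lost without any 1 library apart from Tim-4+CD4+ replicate 1. The calls named in the text for *C6*, *Itgax*, *C1qbp*, and *Scarf1* between macrophages were kept throughout. For *Itgam* between the Tim-4– populations, the call was lost without Tim-4–CD4– replicate 2 or 4 or Tim-4–CD4+ replicate 2, 3, or 4 (adjusted p of 0.0512 to 0.0664). Depth limited *C2* and *Fcna* most, at 15 to 99 counts in monocytes.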
